A study of Mus musculus with 36 samples.

Results

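Among 27 distal colons of mice dosed intrarectally with an siRNA, 10 carried a squamous keratin signal and are described here against the 10 other colons dosed with an siRNA against Tnf. The arrays of the squamous side were chosen by measured values, those of Krt5, Krt14 and Krt13. For each array the log2 values of these 3 genes were averaged, and an array was placed on the squamous side when this keratin mean lay more than 1 log2 above the highest array of the scrambled siRNA, which stood at 7.74, so that the limit was 8.74. Of 20 arrays with an siRNA against Tnf, 10 were above the limit and 10 below it, and the whole series holds 36 arrays. The squamous side held 5 of 8 siTNF-OMe-P arrays (replicates 1, 2, 4, 5 and 7), 4 of 6 siTNF-OMe arrays (replicates 2, 3, 4 and 5) and 1 of 6 siTNF arrays (replicate 3). Because the sides were set on these arrays, gene values are given as a description, with no test.

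The series asked how differently modified siRNAs against Tnf, the gene of the inflammatory cytokine tumour necrosis factor, act in mice whose colon is injured with dextran sulfate sodium (DSS). The siTNF-OMe-P animals received an siRNA modified with O-methyl-propanediol nucleotides, the siTNF-OMe animals one with O-methyl nucleotides, the siTNF animals an unmodified one, the scrambled animals (n = 7) a scrambled siRNA, and 9 animals are labelled Control. The labels give 5% DSS to every animal, Control included, whereas the design text names DSS for the siRNA groups alone, so what Control received is not settled and Control is used as a name. The labels give no strain, age or sex. Each array is from 1 animal, by its own label, and values are log2 intensities of Affymetrix probe sets.

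Stratified squamous epithelium, the tissue of skin, oesophagus and the anal canal, is built in layers. Its basal cells make the keratin pair Krt5 and Krt14, the upper layers of skin switch to Krt1 and Krt10, and those of moist mucosa to Krt4 and Krt13; the outermost cells of skin are sealed by a cornified envelope in which loricrin (Lor) is a main protein. The colon is lined by a simple columnar epithelium that makes other keratins (Krt8, Krt18, Krt20), and the anal canal below it is ringed by striated sphincter muscle. As whole tissue was measured, fewer cells of a type and less RNA per cell cannot be told apart.

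The keratins that set the sides came in a graded series. The squamous keratin mean was lowest in siTNF-OMe-P replicates 7 (9.10) and 4 (9.19) and siTNF-OMe replicate 4 (9.72). It was 10.82 in siTNF-OMe replicate 2, 11.11 in siTNF replicate 3 and 11.22 in siTNF-OMe replicate 5. The upper end was held by siTNF-OMe-P replicate 5 (11.42), siTNF-OMe replicate 3 (11.43) and siTNF-OMe-P replicates 1 (11.87) and 2 (12.15). The 10 other arrays lay between 7.44 and 8.06, with siTNF-OMe replicate 6 (8.06), siTNF-OMe-P replicate 3 (8.04) and siTNF-OMe-P replicate 6 (7.97) the 3 nearest the limit. Scrambled arrays lay between 7.52 and 7.74 and Control arrays between 7.32 and 7.78. A gap of 1.04 thus separated the lowest squamous array from the highest of the others, while the squamous side itself spanned 3.05.

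**Figure D1:**
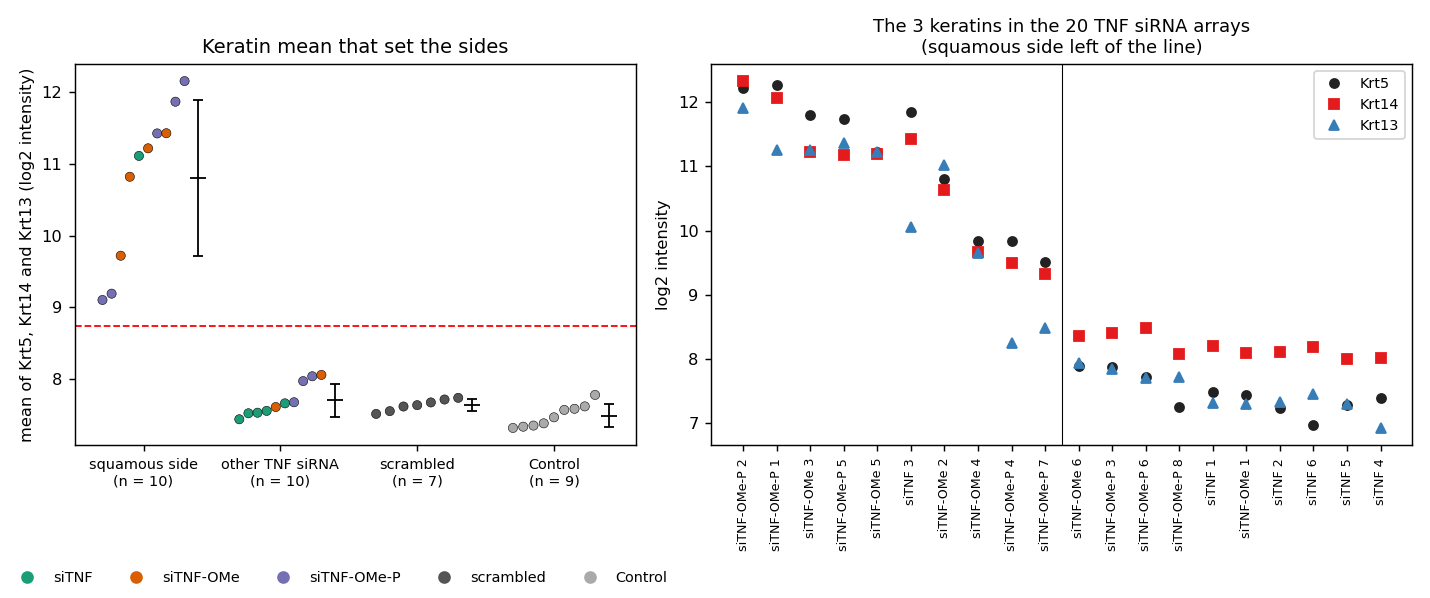
Left, the mean log2 intensity of Krt5, Krt14 and Krt13 in each array (points, coloured by siRNA; bars are mean ± SD), with the limit of 8.74 as a dashed line. Right, each keratin in the 20 arrays with an siRNA against Tnf; squamous arrays are left of the line and run down to 9.10 in keratin mean, and the highest of the others is at 8.06.

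Krt5 was the most different of the 3, with a lowest, median and highest value of 9.51, 11.48 and 12.27 on the squamous side, against 6.96, 7.42 and 7.88 in the other arrays, a mean difference of 3.66 log2 or 12.6-fold. Krt14, its basal partner, stood at 9.32, 11.19 and 12.33 on the squamous side and 8.00, 8.15 and 8.49 in the others, 2.66 apart. Krt13 of mucosal upper layers stood at 8.25, 11.12 and 11.91 on the squamous side and 6.93, 7.39 and 7.94 in the others, 2.96 apart. The arrays did not rank alike in the 3 keratins: siTNF replicate 3 was exceeded by 6 squamous arrays in Krt13 (10.06) but by 2 in Krt5 (11.85). In siTNF-OMe-P replicates 4 and 7 Krt13 (8.25 and 8.49) was closest to the others' highest, 7.94. Probe sets of different genes are not on a common scale, so no level is compared between genes. On the other side, Krt5 was 7.88 in siTNF-OMe replicate 6, 7.87 in siTNF-OMe-P replicate 3 and 7.73 in siTNF-OMe-P replicate 6, each above the scrambled maximum of 7.55.

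Few probe sets separated the sides completely. A probe set was counted as apart when no squamous array overlapped the other 10 and the means differed by at least 1 log2. This held for 7 of 28853 probe sets higher on the squamous side (0.0243%) and for 0 lower (0%). Beside the 3 keratins of the rule they were Krt10, Krt6a, Lgals7 and a probe set with no gene in the platform annotation (6.77, 8.89 and 10.07 on the squamous side, 6.13, 6.33 and 6.69 in the others, 2.20 apart); counted by gene, 6 of 19938 were apart (0.0301%). Krt10, the keratin of differentiating skin layers, stood at 8.65, 10.94 and 12.30 on the squamous side, against 7.75, 8.31 and 8.63 in the other arrays, 2.43 apart in mean. Its 2 lowest squamous arrays, siTNF-OMe-P replicates 4 (8.65) and 7 (8.81), were barely above the others' maximum of 8.63. Krt6a, a keratin of hair follicle and wounded epidermis, stood at 8.16, 10.30 and 11.61 on the squamous side and 7.49, 7.78 and 8.08 in the others, 2.08 apart; its close paralog Krt6b, 1.54 apart, may share signal with it. Lgals7, galectin-7 of stratified epithelia, stood at 7.80, 8.74 and 10.74 on the squamous side and 7.33, 7.70 and 7.78 in the others, 1.23 apart. Stfa3, a stefin, was the only further probe set without overlap, at a difference of 0.82 (8 probe sets without overlap at any size, 0.0277%). Within hybridization batch 1 and batch 2 alone, where fewer arrays make separation easier, 22 and 11 probe sets were apart, and both held all 7. With both batches as covariates over all 20 arrays 6 were apart, and Krt10 and Lgals7 were not among them. Lgals7 was also not apart with the siRNA as a covariate, with the array SD as a covariate, within amplification batch 3 and against scrambled arrays, and Krt10 was not apart with quantile normalization.

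By mean difference alone, 37 of 19938 genes (0.186%) were at least 1 log2 higher on the squamous side and 2 (0.01%) at least 1 log2 lower, where the median difference over all genes was 0.02, 95% of genes lay between -0.25 and 0.21, and 57.9% were above 0. That 57.9% is the share over all genes for each count of list members above 0 given below. Of the 37, 22 are on the lists of squamous epithelium, 6 on the list of skeletal muscle and 9 on neither; the 22 include the 3 keratins of the rule, which are higher by construction, and without them the count is 19 of 34. The 9 are Ppbp, Arg1, Dapl1, Ltf, Dmkn, Teddm3, Lgals7, Trim29 and Myl3. Absence from the lists does not place a gene outside these tissues, as Lgals7 of stratified epithelia is among the 9. The 37 genes are named here because of their values, outside the naming rule. No gene of the 37 had fewer than 6 squamous arrays above all 10 others; 24 genes (0.12% of all) had at least 8. The number of the 37 that exceeded all 10 others differed by array: it was 37 in siTNF-OMe-P replicate 1 and siTNF-OMe replicates 2, 3 and 5, 35 in siTNF-OMe-P replicate 2, 34 in siTNF replicate 3, 31 in siTNF-OMe replicate 4 and 30 in siTNF-OMe-P replicate 5. It was 9 in siTNF-OMe-P replicate 4 and 8 in siTNF-OMe-P replicate 7, the arrays of lowest keratin mean. Without these 2 arrays, an alternative chosen after their values were seen that makes complete separation easier, 29 probe sets were apart, all higher.

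**Figure D2:**
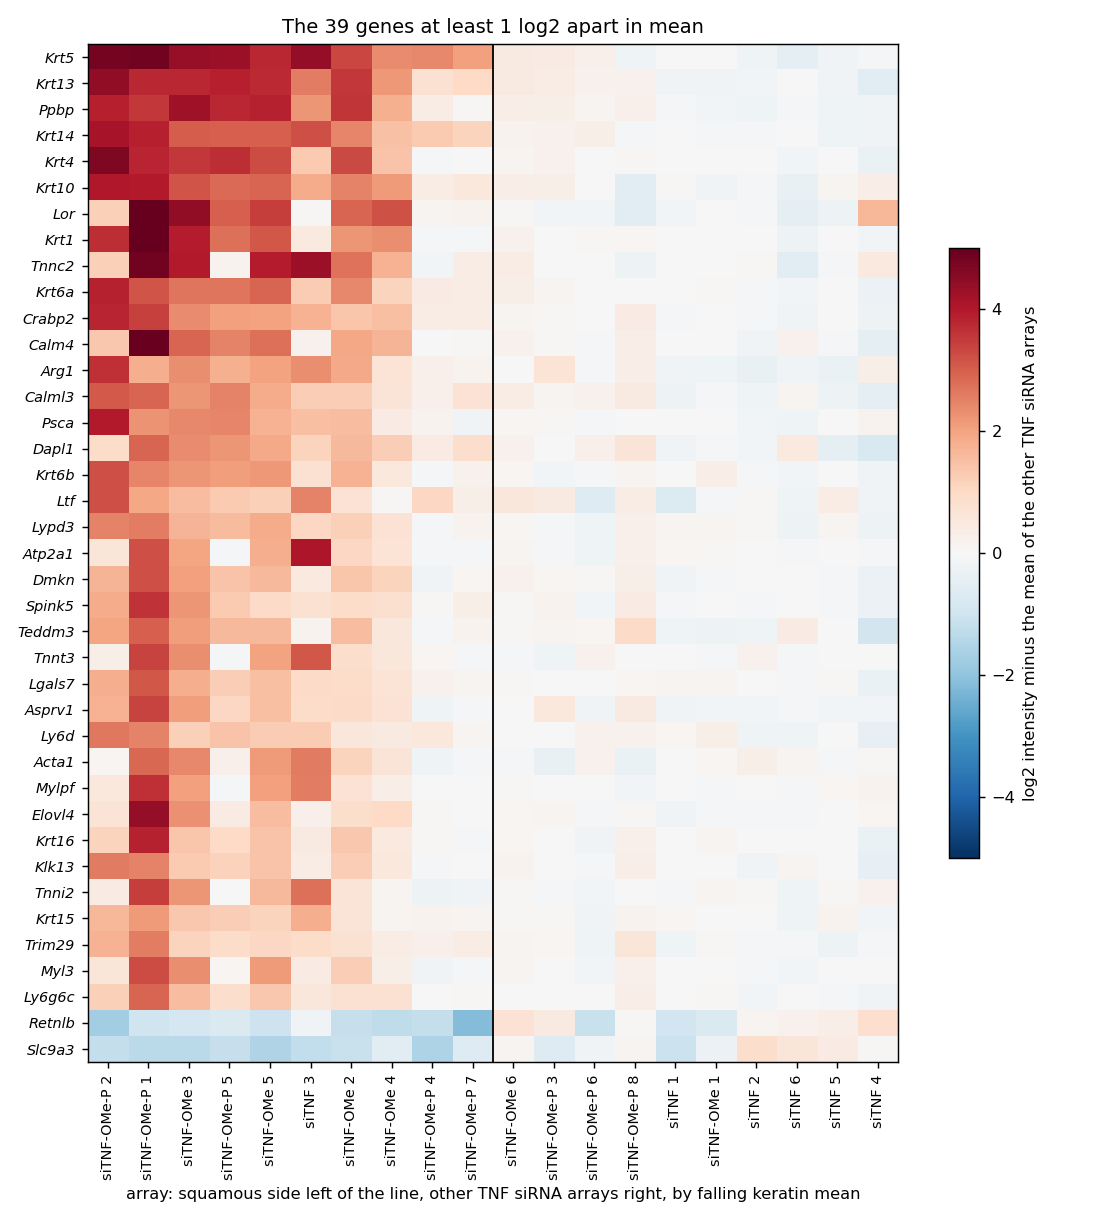
Log2 intensity of the 39 genes with a mean difference of at least 1 log2 (rows, falling by difference) in 20 arrays (columns, falling by keratin mean), each minus the mean of the 10 other arrays. In siTNF-OMe-P replicates 4 and 7, just left of the line, most rows beyond the first keratins are near 0, and the rows Tnnc2, Atp2a1, Tnnt3, Acta1, Mylpf and Tnni2 are dark in a different set of columns than Krt4.

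Keratins of stratified epithelium beyond the rule were higher on the squamous side, and keratins of simple epithelium were not. Of 16 other keratins of stratified epithelia, 16 had a difference above 0, 7 of at least 1 log2, and the median was 0.55. Krt4, the partner of Krt13, stood at 6.28, 9.66 and 11.05 on the squamous side and 6.05, 6.41 and 6.59 in the other arrays, 2.49 apart. It was between 9.63 and 11.05 in 6 squamous arrays, 7.70 in siTNF replicate 3 and 7.79 in siTNF-OMe replicate 4, and within the others' range in siTNF-OMe-P replicates 4 and 7. Krt1, the partner of Krt10, stood at 6.83, 9.44 and 12.17 on the squamous side and 6.68, 6.94 and 7.12 in the others, 2.36 apart, and was near the others' level in siTNF replicate 3 (7.40). Skin and mucosal keratins were high in the same arrays: siTNF-OMe-P replicate 1 was the highest in Krt1 and, at 10.21, next to the highest in Krt4, and siTNF-OMe-P replicate 2 the highest in Krt4 and, at 10.61, above all 10 others in Krt1. Per the RefSeq annotation, Krt5, Krt6a, Krt6b, Krt1 and Krt4 lie on chromosome 15 and Krt14, Krt13, Krt10, Krt16 and Krt15 on chromosome 11, so that genes of both keratin clusters were higher. Krt16 was 1.11 and Krt15, a keratin of basal cells and hair follicle, 1.05 higher. Krt76, Krt78 and Krt2, keratins of palate, other mucosa and thickened skin, differed by 0.18, 0.06 and 0.03. Of the 6 keratins of simple epithelium 2 were above and 4 below 0, with a median difference of -0.07; Krt8 was between 13.21 and 13.56 on the squamous side and between 13.21 and 13.64 in the others.

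Most cornified envelope genes were also higher in mean on the squamous side. Of 41 measured, 37 had a difference above 0, 3 of at least 1 log2, and the median was 0.41. The list mean was 7.40 to 8.74 on the squamous side, 7.24 to 7.65 in the others and 7.33 to 7.57 in scrambled. In Control it was 7.17 to 7.83. It was highest there in replicates 4 (7.83) and 8 (7.78), the arrays of smallest SD (1.55 and 1.57). Lor stood at 6.90, 9.78 and 12.24 on the squamous side, against 6.29, 6.71 and 8.51 in the other arrays, 2.39 apart. It was highest in siTNF-OMe-P replicate 1 (12.24) and siTNF-OMe replicate 3 (11.27), 8.03 in siTNF-OMe-P replicate 2, which had the highest keratin mean of all, and close to the others' level in siTNF replicate 3 (6.90) and siTNF-OMe-P replicates 4 and 7. On the other side, siTNF replicate 4 stood alone at 8.51 while its Krt5 was 7.39. Calm4, a calmodulin-like protein of skin, was 1.83 higher and Calml3, another of stratified epithelia, 1.66 higher. The number of squamous arrays above all 10 others was 9 in Calml3, 8 in Hrnr, Lce1c and Lce3a, 7 in Calm4 and 6 in Lor, against 8 in Krt4, Krt1, Krt6b and Krt16 and 7 in Krt15. Hrnr, Krtdap, Sprr3, Lce1c and Lce3a, all of the cornified layers, were 0.91, 0.88, 0.90, 0.81 and 0.99 higher. Involucrin (Ivl) differed by 0.34, and transglutaminase Tgm1, which crosslinks the envelope, by 0.64.

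The promoters of 4 of these genes are shown, since Lor, Krt10 and Ppbp (a chemokine gene described further on) hold a TATAAA match close to the start while Lor and Krt13 hold a match to the AP-1 motif TGANTCA. Capitals mark TATAAA or TGANTCA, both searched on both strands; the motifs do not overlap, and each line is the last 120 bases before an annotated start in RefSeq, read 5′ to 3′ on the gene's strand (GRCm38.p6).
Lor, chr3:92083143-92083262: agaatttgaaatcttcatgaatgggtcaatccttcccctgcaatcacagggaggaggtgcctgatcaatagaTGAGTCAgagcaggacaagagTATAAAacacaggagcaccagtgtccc
Krt10, chr11:99389365-99389484: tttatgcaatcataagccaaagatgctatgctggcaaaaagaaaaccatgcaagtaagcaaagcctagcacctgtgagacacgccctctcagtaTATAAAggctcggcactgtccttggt
Krt13, chr11:100120578-100120697: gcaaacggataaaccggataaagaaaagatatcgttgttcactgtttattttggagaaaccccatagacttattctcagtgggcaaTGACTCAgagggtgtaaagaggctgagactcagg
Ppbp, chr5:90768398-90768517: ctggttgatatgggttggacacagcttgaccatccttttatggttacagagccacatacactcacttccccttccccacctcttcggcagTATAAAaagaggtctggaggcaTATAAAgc
All are on the minus strand but Ppbp. The TATAAA match begins 27 bases before the start in Lor, 26 in Krt10 and 30 and 8 in Ppbp, and the TGANTCA match 48 bases before it in Lor and 34 in Krt13, at the inner of its annotated starts. The start used for Krt10 also lies inside the annotated span of its gene. Over the 250 bases before each start, TATAAA was found in 6 of 25 windows of the 37 genes (24%; 22 genes had an entry) and in 12.4% of 32851 windows of all genes. TGANTCA was found in 7 of the 25 (28%) and in 6.75% of all. The windows of Krt5 and Krt14, and that of the outer annotated start of Krt13, held neither in their last 120 bases. For Krt14, too, the start used lies inside the annotated span of the gene. Further TGANTCA matches began 204 bases before a start in Ppbp and 196 and 183 bases before one in Krt13.

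Genes of the squamous barrier outside the envelope were also higher. Of 19 kallikreins and skin proteases, 18 had a difference above 0, with a median of 0.54; Asprv1, the skin aspartic protease, was 1.20 and Klk13 1.11 higher. Spink5, an inhibitor of kallikreins, stood at 6.68, 7.56 and 10.25 on the squamous side and 6.34, 6.59 and 7.03 in the others, 1.28 apart. Of 11 members of the Ly6 and Slurp family, 9 were above 0 and 4 at least 1 log2 higher: Psca (1.62), Lypd3 (1.32), Ly6d (1.19) and Ly6g6c (1.00). Psca was 10.25 in siTNF-OMe-P replicate 2, its highest array, and 6.71 in siTNF-OMe replicate 4. Among 18 genes of epidermal lipids, Crabp2, a retinoic acid carrier, was 1.90 higher and Elovl4, an enzyme of very long fatty acids, 1.15 higher, with a list median of 0.20. Elovl4 was 11.14 in siTNF-OMe-P replicate 1, against 7.42 in siTNF-OMe-P replicate 2, although the keratin means of these arrays are close.

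By list median, structural partners of keratins differed little, while some desmosome genes were higher on the squamous side. The 13 desmosome genes had a median difference of 0.04, and the 12 genes of hemidesmosome and basal lamina -0.03. The desmosomal cadherin Dsg3 of stratified epithelium was 0.96, its relative Dsc3 0.52 and Pkp1 0.50 higher. In these 7, 8 and 6 squamous arrays lay above all 10 others. The integrin Itgb4 and the laminin chain Lamb3 differed by -0.06 and -0.09. Col17a1, the collagen of the hemidesmosome, was 0.40 higher. Among 22 transcription factors of squamous epithelium the median was 0.09; Trp63, the master regulator of its basal cells, stood at 7.81, 8.09 and 8.31 on the squamous side and 7.17, 7.67 and 8.14 in the others, overlapping in 7 of 10 arrays, and Grhl1 was 0.35 higher.

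Markers of skin appendages had small mean differences. Of the 18 hair keratins measured 17 were above 0, where 57.9% of all genes were, with a median difference of 0.11 and a highest of 0.40 (Krt71). Their list mean was 7.04 to 7.55 on the squamous side, 6.97 to 7.41 in the others and 6.90 to 7.70 in Control. It was highest of all in Control replicate 4, the array of smallest SD (1.55). In Krt25 7 and in Krt71 6 squamous arrays exceeded all 10 others. The 8 melanocyte genes had a median difference of 0.06, with Tyr at 5.77, 5.87 and 6.12 on the squamous side and 5.63, 5.87 and 6.05 in the others. The 15 sebaceous gland genes had a median of 0.14, with 12 above 0. Their mean level was 9.18 in siTNF-OMe-P replicate 1, against 8.15 to 8.52 in the 9 other squamous arrays; Elovl3, a fatty acid elongase, was 9.50 and Scd3, a desaturase, 9.32 in that array. They were 7.48 and 7.84 in siTNF-OMe replicate 3 and 7.09 and 7.54 in siTNF-OMe replicate 5, against 6.38 and 7.18 at most on the other side. In Elovl3 6 squamous arrays exceeded all 10 others and in Scd3 4.

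Skeletal muscle genes were high in part of the squamous arrays. Of 28 measured, 26 had a difference above 0 and 6 of at least 1 log2, with a median of 0.45. Tnnc2, the calcium-binding troponin of fast muscle, stood at 8.03, 10.38 and 13.00 on the squamous side, against 7.59, 8.15 and 8.64 in the other arrays, 2.31 apart. It was 13.00 in siTNF-OMe-P replicate 1, 12.43 in siTNF replicate 3, 12.11 and 12.10 in siTNF-OMe replicates 3 and 5, 10.86 in siTNF-OMe replicate 2 and 9.90 in siTNF-OMe replicate 4. In siTNF-OMe-P replicates 2, 7, 5 and 4 it was 9.34, 8.54, 8.35 and 8.03, where the highest other array was at 8.64. The calcium pump Atp2a1 (1.31), the troponins Tnnt3 (1.26) and Tnni2 (1.08), the actin Acta1 (1.18) and the myosin light chain Mylpf (1.18) followed the same arrays. In Tnnc2 all 4 squamous siTNF-OMe arrays and the squamous siTNF array thus lay above the others, and of the 5 squamous siTNF-OMe-P arrays replicates 1 and 2 did. The mean of the list was between 7.64 and 9.35 on the squamous side, between 7.62 and 7.79 in the others, between 7.65 and 7.93 in scrambled and between 7.54 and 8.14 in Control. In Control replicates 4 and 8, 20 and 14 of the 28 genes lay above all 10 others, and in scrambled arrays 9 at most, in replicate 5. Those Control arrays had the smallest SDs of all (1.55 and 1.57), and scrambled replicate 5 the smallest of the scrambled arrays (1.69). The share of all genes above the 10 others in these arrays was not counted, so the counts are not read as muscle signal. The defining genes were not the same in all arrays: siTNF replicate 3 alone was high in Myh4 (10.04), Actn3 (9.73) and Pvalb (9.25), markers of the fastest fibres, which were at most 6.74, 7.60 and 6.92 in the 9 other squamous arrays. Myh8, the perinatal myosin, was 10.64, 9.72 and 8.99 in siTNF-OMe-P replicate 1 and siTNF-OMe replicates 3 and 5, and 7.84 in siTNF replicate 3. Smooth muscle genes, the muscle of the colon wall, had a median difference of 0.03. The part of muscle in the other differences was not tested; in siTNF-OMe-P replicate 5, where Tnnc2, Atp2a1 and Mylpf lay within the others' range, Krt5 was 11.74, Krt4 10.06 and Lor 9.82.

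**Figure D3:**
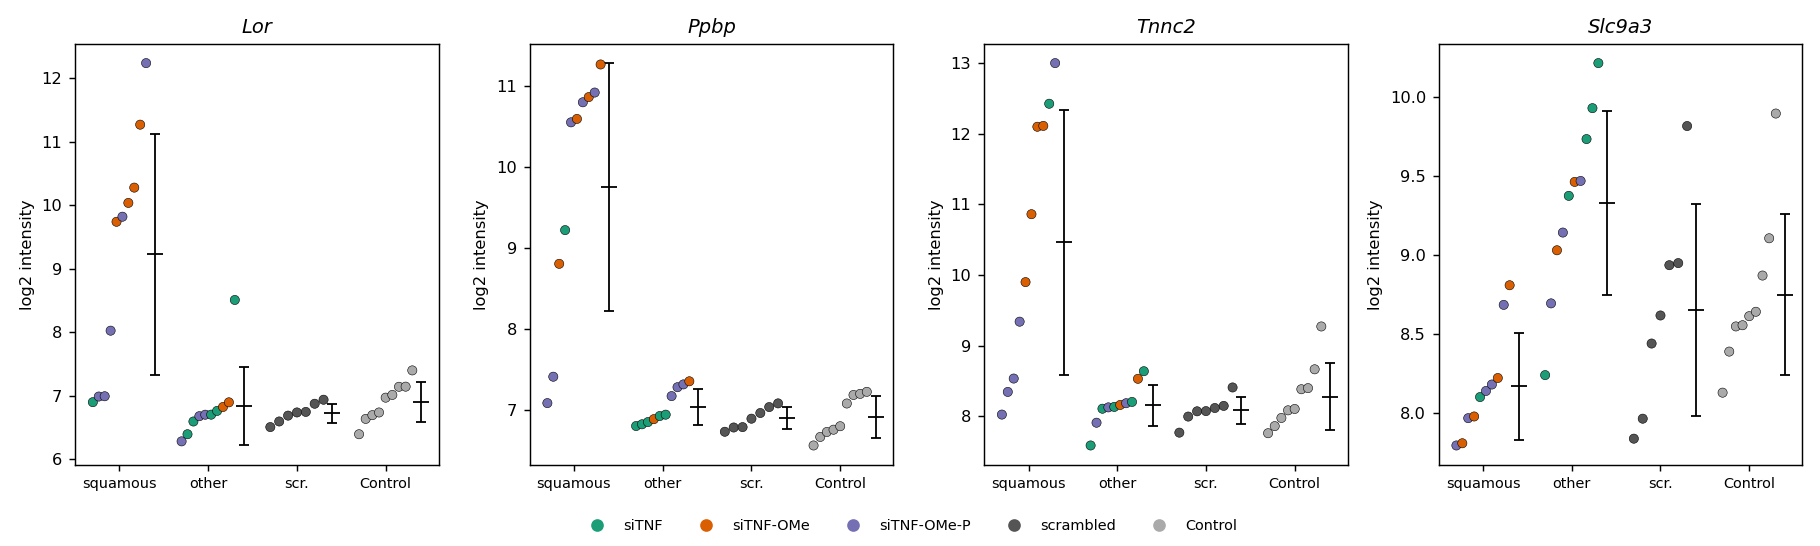
Log2 intensity of Lor, Ppbp, Tnnc2 and Slc9a3 in each array (points, coloured by siRNA; bars are mean ± SD) on the squamous side, in the other arrays with an siRNA against Tnf, in scrambled (scr.) and in Control. Lor and Tnnc2 split the squamous side into high and low arrays, Ppbp is high in 8 of its 10, and Slc9a3 is the only one of the 4 that is lower there.

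Ppbp was the most different gene on neither the lists of squamous epithelium nor the list of skeletal muscle. It encodes a CXC chemokine precursor known from platelets, and it stood at 7.08, 10.58 and 11.27 on the squamous side, against 6.80, 6.93 and 7.35 in the other arrays, 2.72 apart or 6.59-fold. It was high in every squamous array but siTNF-OMe-P replicates 4 (7.41) and 7 (7.08), including siTNF-OMe-P replicate 5, in which muscle genes were low. Scrambled arrays lay between 6.73 and 7.08 and Control arrays between 6.56 and 7.22. Of 8 other platelet genes measured, from a list added for this reason, 8 had a difference above 0, and the largest was 0.14, that of Pf4. Arg1, arginase of liver, macrophages and keratinocytes, stood at 8.01, 9.67 and 11.47 on the squamous side and 7.47, 7.71 and 8.52 in the others, 1.69 apart, and was highest in siTNF-OMe-P replicate 2 (11.47). Dapl1, a gene of epithelial differentiation, was 1.55 higher and overlapped in 1 array.

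Among immune genes, Ltf, lactoferrin of neutrophil granules and of glandular epithelia, was 1.39 higher, with 9.16, 10.35 and 12.32 on the squamous side and 8.39, 9.09 and 9.65 in the others. The 17 neutrophil genes had a median difference of 0.32. The neutrophil list mean was 7.80 to 10.13 on the squamous side, 7.73 to 9.37 in the others, 7.78 to 8.82 in scrambled and 7.28 to 7.89 in Control. Among the others it was 7.73 to 8.05 in siTNF arrays and 8.05 to 9.37 in siTNF-OMe and siTNF-OMe-P arrays. In the squamous siTNF-OMe and siTNF-OMe-P arrays it was 7.80 to 9.12. A squamous array, siTNF replicate 3, was the highest in S100a8 (12.27), S100a9 (12.47), Il1r2 (11.70) and the granule gene Ngp (10.37, against at most 7.14 in the 9 other squamous arrays). It was also the highest in the cytokine genes Il6 (10.06), Cxcl2 (11.61) and Il1a (9.89), and the MPO activity of that animal was 0.703 U per mg. MPO activity was higher in squamous siTNF-OMe-P replicate 1 (0.815) and, on the other side, in siTNF-OMe replicates 1 (1.157) and 6 (0.932). On the other side, siTNF-OMe-P replicate 3 had S100a8 at 11.71 and Cxcl2 at 9.32 with Krt5 at 7.87. Without siTNF replicate 3, Cxcl2 differed by 0.05, Il6 by 0.30, Ngp by 0.02 and Ltf by 1.27.

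Tnf, the gene against which the siRNAs were directed, stood at 8.41, 8.71 and 9.42 on the squamous side and 8.70, 8.94 and 9.33 in the other arrays, -0.23 log2 in mean difference. The ranges overlapped, and the scrambled arrays lay between 8.36 and 9.47. The 20 measured targets of TNF and NF-kB had a median difference of -0.03, with 9 above and 11 below 0, and the 21 type I interferon response genes one of -0.10. The 21 monocyte and macrophage genes had a median of 0.06 and the 17 T and NK cell genes one of 0.06.

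Most genes of the columnar epithelium were lower in mean on the squamous side. Of 28 measured genes of absorptive colonocytes, 22 were below 0, with a median of -0.17, and of 19 goblet cell genes 18, with a median of -0.24. Of 13 intestinal transcription factors 11 were below 0, with a median of -0.16, and of 16 enteroendocrine genes 14, with a median of -0.13. The siRNAs were unevenly spread, with 5 of 6 siTNF arrays among the others. In these the absorptive list mean was 10.98 to 11.20 and the goblet mean 10.74 to 10.87. In the siTNF-OMe and siTNF-OMe-P arrays of that side the means were 10.48 to 10.91 and 10.24 to 10.70. On the squamous side they were 10.42 to 10.89 and 10.08 to 10.56. The cause was not tested. Slc9a3, the apical sodium-proton exchanger, stood at 7.79, 8.12 and 8.81 on the squamous side, against 8.24, 9.42 and 10.21 in the other arrays, -1.16 in mean difference, with 8 squamous arrays below all the others. The scrambled arrays, at 7.84, 8.62 and 9.81, and the Control arrays, at 8.13, 8.61 and 9.89, overlapped both ranges. Retnlb, a goblet cell antimicrobial protein, stood at 6.62, 7.71 and 8.63 on the squamous side and 7.68, 8.98 and 9.65 in the others, -1.14 in mean difference, with 5 squamous arrays below all the others. Slc13a2 (-0.85), a citrate transporter, Aqp4 (-0.78), a water channel, and Pla2g2a (-0.91), a secreted phospholipase, were less different. The anion exchanger Slc26a3 differed by -0.47, and the transcription factors Isx, Elf3 and Cdx2 by -0.40, -0.31 and -0.30. Car1, Muc2 and Hoxd13 differed less. Car1, the carbonic anhydrase of colonocytes, was 13.31, 13.41 and 13.61 on the squamous side and 12.97, 13.37 and 13.59 in the others, 0.08 apart. Muc2, the main mucin of goblet cells, was 12.44, 12.62 and 12.76 on the squamous side and 12.42, 12.84 and 13.02 in the others. Hoxd13, a transcription factor gene of the most distal gut, was 9.38, 10.35 and 10.77 on the squamous side and 9.61, 10.41 and 10.66 in the others.

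**Figure D4:**
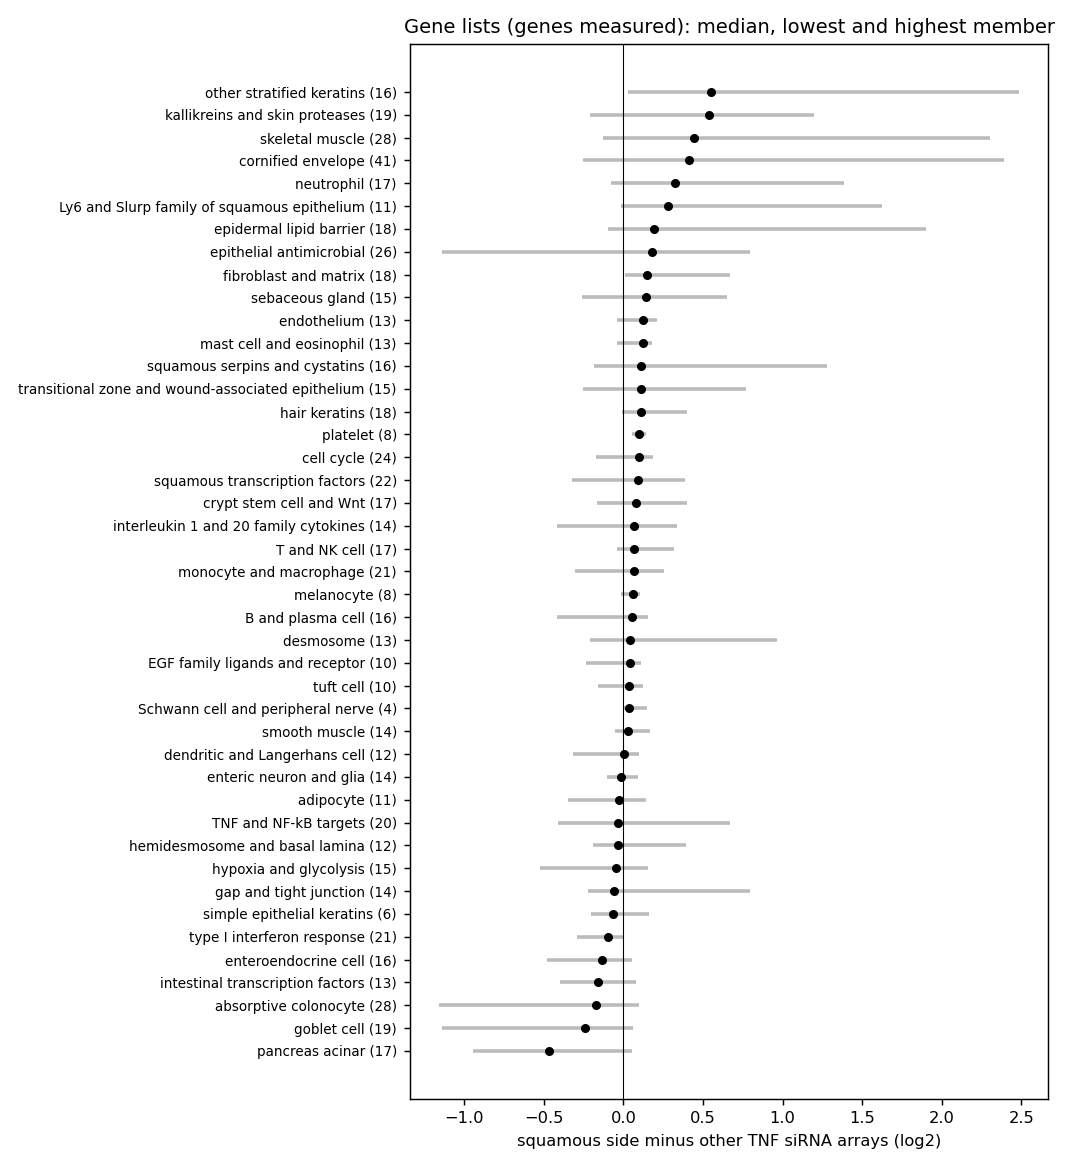
Median difference (points), squamous side minus other arrays with an siRNA against Tnf, in log2, of 43 gene lists, with the lowest and highest member (grey lines) and the number of genes measured. Lists of stratified epithelium and skeletal muscle have medians up to 0.55 and long right-hand tails, and most other medians lie within 0.2 of 0; the pancreas acinar list is at -0.47.

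Pancreatic transcripts marked arrays of the other side. In a list of acinar genes added after the values were seen, 16 of 17 measured genes were lower on the squamous side, with a median of -0.47. Cpa1, a carboxypeptidase of digestive juice, was 11.12 in siTNF-OMe replicate 1 and 11.64 in siTNF replicate 5 and at most 7.99 in the 8 further arrays of that side, against 7.33, 7.55 and 8.02 on the squamous side. It reached 13.37 in scrambled replicate 5. On the squamous side siTNF-OMe replicate 2 alone was raised in Ctrb1, chymotrypsinogen, at 10.05, against 8.35 at most in the 9 others. Without the 2 pancreas-bearing arrays the list median was 0.06, and 7 probe sets were apart.

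Measures of the colon that did not enter the rule were tested. Colon length was 6.29 ± 0.41 (SD, n = 10) on the squamous side and 5.86 ± 0.37 in the others (n = 10), in mm as labelled although the labelled ratio of weight to length fits cm. The difference was 0.43 (95% interval 0.0667 to 0.80), and 9 of 10 squamous animals lay above the others' mean (exact two-sided permutation p = 0.0272, 0.109 after adjustment over 4 measures), so that it did not pass. Scrambled colons were 6.07 ± 0.30 long (n = 7) and Control colons 7.68 ± 0.27 (n = 9).

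MPO activity, the neutrophil enzyme assayed in tissue, was 0.399 ± 0.259 U per mg on the squamous side and 0.420 ± 0.368 in the others, which differ by -0.0205 (95% interval -0.322 to 0.275; adjusted p = 0.888 by exact permutation of n = 10 each). Colon weight was 169.0 ± 12.7 mg on the squamous side and 164 ± 7.61 mg in the others, which differ by 5.2 (95% interval -4.5 to 15; adjusted p = 0.564 by exact permutation). The ratio of weight to length was 2.70 ± 0.291 mg per mm on the squamous side and 2.79 ± 0.140 in the others, which differ by -0.0858 (95% interval -0.301 to 0.125; adjusted p = 0.564 by exact permutation).

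Within hybridization batch 1, with 5 squamous and 4 other animals, the length difference was 0.59 (exact permutation adjusted p = 0.0317), and within batch 2, with 5 and 6, it was 0.27 (exact permutation adjusted p = 0.730). Leaving out siTNF-OMe replicate 4, the shortest squamous colon at 5.5, gave 0.52 (exact permutation adjusted p = 0.00896), and leaving out siTNF replicate 4 of the other side gave 0.49 (exact permutation adjusted p = 0.0445). Over all 20 arrays left out in turn, the length difference ran from 0.34 to 0.52 (exact permutation adjusted p from 0.00896 to 0.211). It passed the threshold only without siTNF-OMe replicate 4 or siTNF replicate 4. The length difference did not pass without any other single array. It did not pass by medians (0.25, exact permutation adjusted p = 0.443), with labels permuted within siRNA (0.38, exact permutation adjusted p = 0.149) or against scrambled animals (0.22, exact permutation adjusted p = 0.605).

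**Figure D5:**
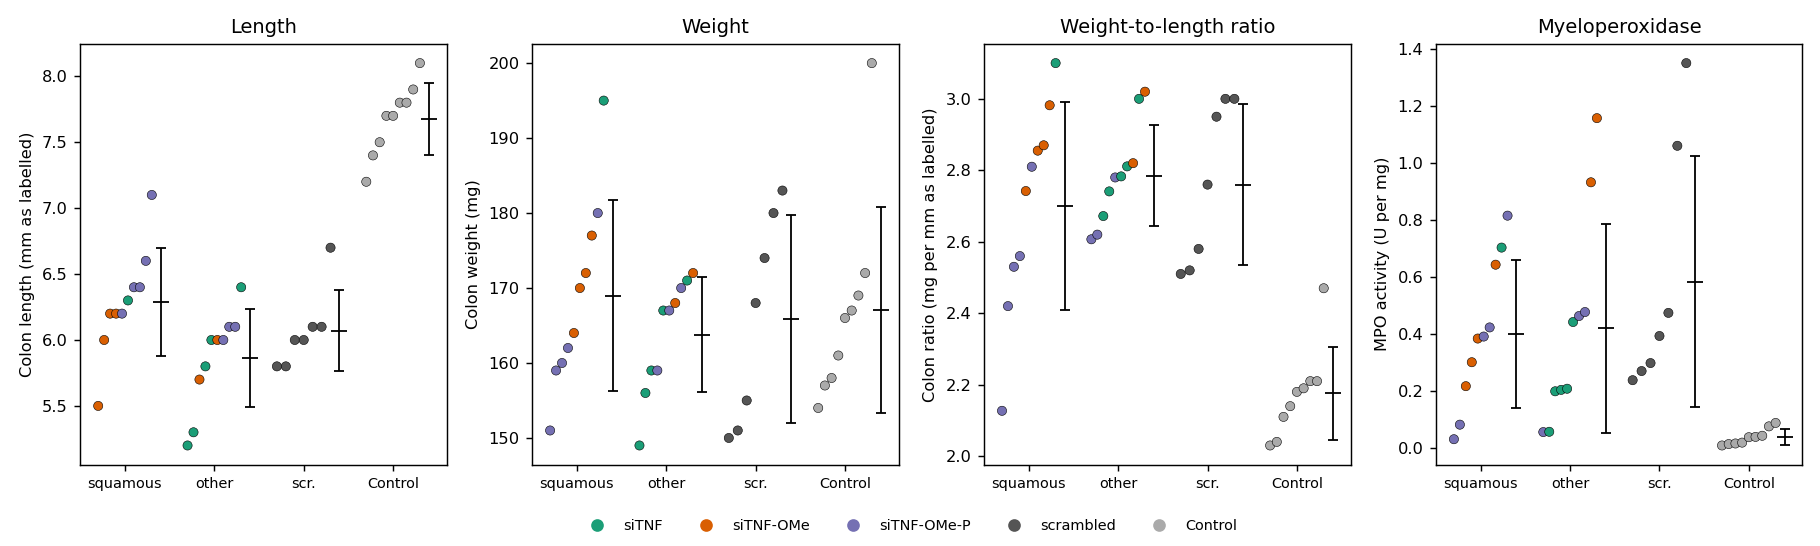
Colon length, weight, ratio of weight to length and MPO activity of each animal (points, coloured by siRNA; bars are mean ± SD) on the squamous side, in the other animals with an siRNA against Tnf, in scrambled (scr.) and in Control. Lengths average 6.29 on the squamous side and 5.86 in the others; the sides overlap in all 4 measures.

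Membership was set against the labels. Squamous arrays made up 62.5% of siTNF-OMe-P, 66.7% of siTNF-OMe and 16.7% of siTNF arrays, a spread that did not pass (exact permutation p = 0.246, 0.738 after adjustment over 3 labels). The shares were 2 of 5, 6 of 9 and 2 of 6 arrays in amplification batches 1 to 3 (exact permutation adjusted p = 0.784) and 5 of 9 and 5 of 11 in hybridization batches 1 and 2 (exact permutation adjusted p = 1). By the rule no scrambled array could lie on the squamous side, and among the 9 Control arrays, to which the rule was not applied, the highest keratin mean was 7.78.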

How the data were processed

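Total RNA from the distal colons of 36 mice, 25 ng each, was amplified in 3 batches and hybridized to Affymetrix arrays in 2, per the labels' protocols and dates. The authors deposited log2 signals per probe set, for which the submitters' processing notes name Partek and RMA; no source used here says whether batches were adjusted. Array SDs ran from 1.55 to 1.89, so arrays were not brought to 1 spread. All 28853 probe sets were kept. The platform annotation gives a gene to 21789 of them, more than 1 gene to 1621 and no gene to 5443; for a gene with several probe sets the one of highest mean over the 27 siRNA-dosed arrays was used. Signal over background is not known, and the number of arrays limits the precision.

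The sides came from the keratin rule, and the members and lists were chosen with earlier results of these data known. Of 739 list places, 678 were measured; 2 further lists, of pancreas and platelets, were added after values were seen. The naming rule took Krt5, Krt14, Krt13 and Tnf, probe sets apart between the sides, and the most different members of each list; genes at least 1 log2 apart, Myh4 and similar defining markers were chosen after their values were seen. A fold is 2 to the power of the difference in mean log2 value.

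Colon measures were compared by exact two-sided permutation over all 184756 divisions of 20 animals, with 95% intervals from inverting the test, and Benjamini-Hochberg adjustment over 4 measures at a threshold of 0.05; membership over 3 labels likewise. Where labels name no shared litter or cage, p-values measure the spread between these animals. Deviations of same-numbered arrays of different siRNAs had a mean r of 0.13 (18 pairs, from -0.37 to 0.47). Other-numbered arrays had a mean r of -0.01 (114 pairs, from -0.75 to 0.71). These few, overlapping values cannot settle whether the numbers pair. The main tests are unpaired, and the replicate block is given among the alternatives. Scripts were tested on simulated data. Alternatives were other limits, scalings, covariates, batches and arrays left out. Computations ran in Python 3.11.15 with pandas 2.3.3, NumPy 2.4.6 and SciPy 1.17.1.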

Additional observations from a re-analysis of the deposited data

Results flagged for a closer look

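Each of 98 combinations of a side with a keratin mean, colon measure or list mean was examined for a sample that stands far from the 9 others of its side. Chance flags about 1 in 20 such groups when they are independent. These groups are not, as they share the same arrays and the keratin mean entered more than once. The 10 that stood out, in 4 arrays, are therefore not set against that rate. The array siTNF-OMe-P replicate 1 was high in the list means of squamous serpins and cystatins (7.72, against 6.72 to 7.15 in the 9 other squamous arrays), epidermal lipid barrier (8.72, against 7.86 to 8.29) and sebaceous gland (9.18, against 8.15 to 8.52). The squamous array siTNF replicate 3 was high in interleukin 1 and 20 family cytokines (8.48, against 7.93 to 8.18) and TNF and NF-kB targets (10.30, against 8.75 to 9.50), and low in smooth muscle (11.39, against 11.63 to 11.78) and goblet cell genes (10.08, against 10.31 to 10.56). On the other side, siTNF-OMe-P replicate 8 was high in epidermal lipid barrier (8.01, against 7.65 to 7.85) and melanocyte genes (7.63, against 7.32 to 7.45), and siTNF-OMe-P replicate 3 in endothelium (9.72, against 8.98 to 9.31). Replicate 8 of siTNF-OMe-P had the smallest array SD of its side (1.67). It was also the highest of its side in the list means of hair keratins (7.41) and cornified envelope genes (7.65), so its flags are not read as particular to a cell type. The causes were not tested.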

How the results depend on the processing

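The 10 members of the squamous side were also found with a limit of 0.5 log2, quantile normalization, median centring, all probe sets per gene and without Krt14 or Krt13; a limit of 2 log2 kept 7 of them and leaving out Krt5 kept 8. The 7 probe sets apart became 22 and 11 within hybridization batches 1 and 2 and 128, 13 and 22 within amplification batches 1 to 3, where fewer arrays make complete separation easier; each of these kept all 7 except amplification batch 3, which kept 6. Of the 7, batches as covariates kept 5 (6 apart); quantile normalization, the array SD as a covariate, the siRNA as a covariate, scrambled arrays in place of the others and leaving out dim probe sets kept 6 each. It was 29 without the 2 arrays of lowest keratin mean, 40 with the replicate block (38 higher and 2 lower, 7 kept), and 7 to 9 with each array left out. With a minimum of 2 log2 it was 6, and with 0.5 log2 8. Of 5868 differences of named genes recomputed, 93 moved by more than their SD, most of them within single amplification batches, and none of the genes apart changed sign. The MPO difference of -0.0205 turned to 0.0625 by medians, 0.0453 on the log2 scale and 0.0733 with the replicate block, and ran from -0.0667 to 0.0614 with each array left out, above 0 without siTNF-OMe-P replicate 5 (0.0204) or 7 (0.0147) or siTNF-OMe replicate 1 or 6 (0.0364). The ratio turned to 0.0108 with the replicate block, and the length difference of 0.43 passed the threshold at 0.59 within hybridization batch 1 and without siTNF-OMe replicate 4 or siTNF replicate 4 (range 0.34 to 0.52); it did not pass at 0.30 with the replicate block (exact permutation adjusted p = 0.617), 0.25 by medians (0.443), 0.38 within siRNA (0.149), 0.27 within hybridization batch 2 (0.730) or 0.22 against scrambled animals (0.605). Within siRNA the MPO difference was -0.110. The weight difference of 5.2 was 0 by medians, 2.31 without siTNF replicate 3 and 2.31 to 7.2 over all arrays left out. The ratio difference of -0.0858 ran from -0.130 without siTNF replicate 3 to -0.0222 without siTNF-OMe-P replicate 7, and was -0.0547 without siTNF-OMe-P replicate 2 and -0.0055 by medians. Causes were not tested. Signal near the array's floor limits low genes.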
